A study of Mus musculus with 20 samples.

Results

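The genes described here carry the hedgehog signal and the parathyroid hormone-related signal of the developing limb: the ligands Shh and Ihh, the receptor Ptch1, the antagonist Hhip, the transducer Smo, the transcription factors Gli1 and Gli3, the peptide Pthlh and its receptor Pth1r. They were chosen by gene symbol, and 8 of the 9 had a probe set among the 19936 genes tested; Pthlh was not analysed here. Each of the 8 had a single probe set. Expression was measured on 20 Affymetrix GeneChip ST arrays, each hybridised with RNA of 1 whole limb from a 129Sv mouse embryo at embryonic day 13.5. The groups were Lmx1b -/- forelimbs, wild-type forelimbs, Lmx1b -/- hindlimbs and wild-type hindlimbs, with 5 arrays each (replicates 1 to 5 for forelimbs, 6 to 10 for hindlimbs; 3 right and 2 left limbs in each group). Lmx1b encodes the LIM homeodomain factor that specifies dorsal limb identity, and the mutants carry a loss-of-function allele on both copies. The labels do not say which limbs came from the same embryo, so p-values measure the spread between limbs and treat limbs of an embryo, if any, as independent.

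Hedgehog ligands bind Ptch1, which otherwise holds Smo inactive at the primary cilium; active Smo changes the processing of Gli3 and turns on Gli1, Ptch1 and Hhip, so that the receptor and the antagonist are themselves targets of the pathway. In the limb, Shh comes from the posterior margin and patterns the digits, and Ihh comes from prehypertrophic chondrocytes of the cartilage models. Ihh maintains Pthlh expression near the joint ends, and Pthlh acts through Pth1r to delay chondrocyte hypertrophy.

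Promoter windows are shown for the antagonist and the receptor because Hhip was the member that differed most between groups and because its level varied together with that of Ptch1 from limb to limb. The windows are RefSeq sequence of build GRCm38.p6, 250 bases before to 50 after an annotated start, 5′ to 3′ on the minus strand. The Hhip window lies at chr8:80057959-80058258 and the Ptch1 window at chr13:63565686-63565985. The Ptch1 gene spans 63508328 to 63573460, so its window belongs to a start inside the gene and not to the outermost one, for which no window was available. The Hhip gene spans 79965850 to 80058060, so its window too is set by a start inside the gene. The outer end of the Hhip gene still lies within that window. Capitals mark a TGACGTCA palindrome, the cyclic AMP response element, a motif searched for after the Hhip sequence had been read.
Hhip: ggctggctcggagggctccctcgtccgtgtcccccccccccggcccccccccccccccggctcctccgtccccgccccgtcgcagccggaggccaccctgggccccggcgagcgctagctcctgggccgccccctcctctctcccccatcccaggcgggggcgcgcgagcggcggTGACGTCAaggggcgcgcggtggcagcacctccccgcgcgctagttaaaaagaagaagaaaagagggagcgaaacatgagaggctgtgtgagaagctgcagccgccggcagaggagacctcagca
Ptch1: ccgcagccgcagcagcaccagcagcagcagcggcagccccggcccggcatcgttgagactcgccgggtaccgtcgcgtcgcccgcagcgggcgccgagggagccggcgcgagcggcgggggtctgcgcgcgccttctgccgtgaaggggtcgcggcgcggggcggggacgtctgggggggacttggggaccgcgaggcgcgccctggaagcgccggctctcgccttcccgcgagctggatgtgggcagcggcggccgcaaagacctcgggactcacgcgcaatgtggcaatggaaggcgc
The Hhip window was 73.7% G and C and the Ptch1 window 76.3%, against a median of 52.7% over all windows. TGACGTCA occurs in 588 of 32851 windows (1.79%). The Gli consensus GACCACCCA, searched on both strands, was in 83 of 32851 windows (0.253%), and it was in none of the 9 windows available for 7 members (none for Shh or Gli1). The homeodomain core TAATTA, which occurs in 5.29% of windows, was in 1 of the 3 Pth1r windows. A match or its lack describes only these letters in these windows.

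As a check of the labels, Lmx1b itself lay at 5.60 to 5.82 (log2 intensity, as are all levels below) in Lmx1b -/- forelimbs, against 6.14 to 6.48 in wild-type forelimbs. It lay at 5.81 to 6.09 in Lmx1b -/- hindlimbs, against 6.30 to 6.52 in wild-type hindlimbs. The groups did not overlap, and the change over both limb types was -0.55 (SE 0.049, limma with Benjamini-Hochberg adjustment, adjusted p = 2.63e-07); where the probes lie relative to the mutated part is not given. Limb identity followed the labels too: Pitx1, a hindlimb factor, averaged 8.43 and 8.49 in Lmx1b -/- and wild-type hindlimbs, against 5.52 and 5.40 in Lmx1b -/- and wild-type forelimbs. By Y-linked genes and Xist, the Lmx1b -/- forelimbs were 2 male and 3 female, the wild-type forelimbs 5 male and 0 female, and each hindlimb group 3 male and 2 female, so sex is unevenly spread over the forelimb comparison. Array medians ran from 4.84 to 4.99. In whole limbs, fewer cells of a type and less RNA per cell cannot be told apart.

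Smo was the brightest of the 8 members, and Shh was the only one whose mean over all arrays lay below the median gene (5.44). Brightness of different probe sets does not rank the genes by transcript number. Hhip was the only member whose change with genotype passed the threshold, and it fell. Over both limb types 2.04% of all genes passed the threshold (adjusted p under 0.05), 1.57% lower and 0.466% higher, and 1 of the 8 members passed. These shares depend on single arrays: leaving out 1 gave 260 to 595 genes over both limb types, against 406 with all 20. Among cell type markers, 3 of 10 muscle, 2 of 5 endothelial and 2 of 4 macrophage markers were lower, as were 3 of 4 measured osteoblast markers, and none of 6 chondrocyte or 6 epidermis markers passed. The median member change was -0.10, against 0.00 over all genes, and 7 of the 8 changes were negative.

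**Figure D1:**
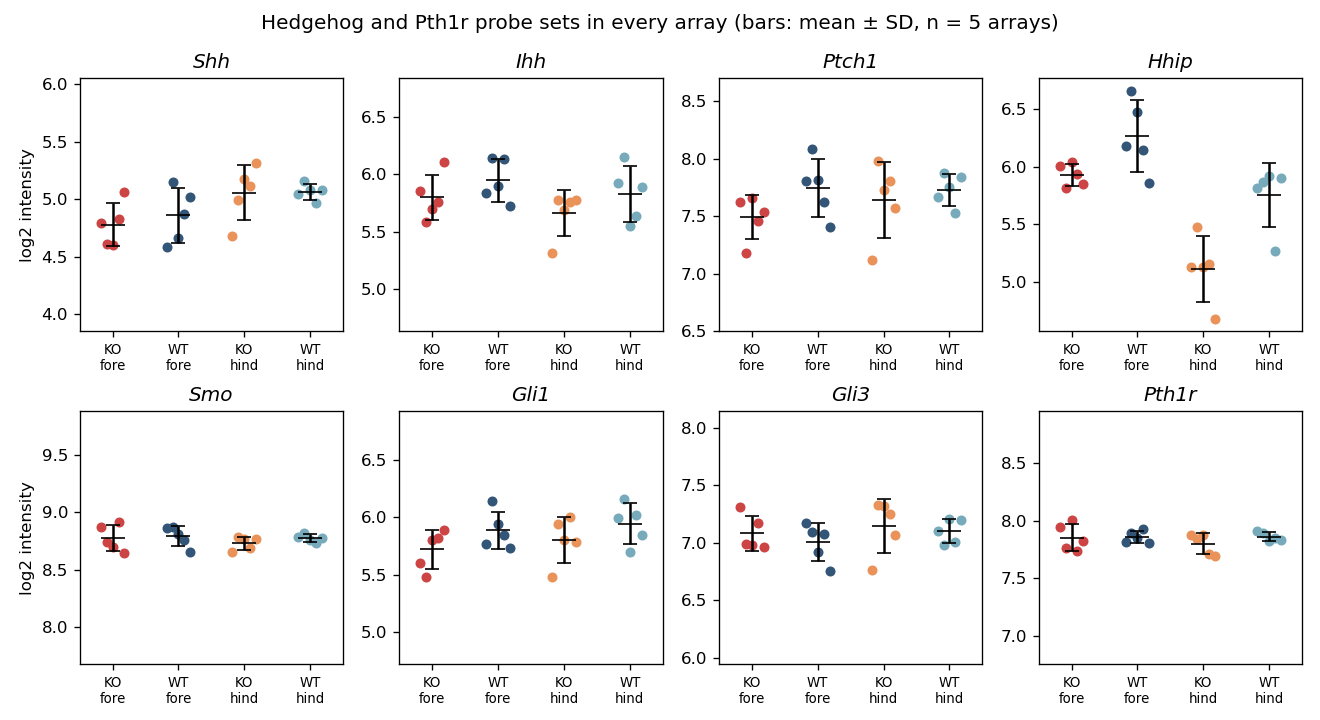
Log2 intensity of the 8 measured members in each of the 20 limbs, grouped by genotype (KO, Lmx1b -/-; WT, wild-type) and limb type; points are arrays and bars the mean ± SD (n = 5). Hhip in the 5 Lmx1b -/- hindlimbs sits between 4.68 and 5.48, below all 5 Lmx1b -/- forelimbs, while Smo and Pth1r stay within narrow bands in every group.

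Hhip encodes a membrane-anchored protein that binds hedgehog ligands and limits their range. In Lmx1b -/- forelimbs it read 6.01, 5.82, 6.04, 5.93 and 5.85 (replicates 1 to 5), against 6.18, 6.66, 6.48, 6.15 and 5.86 in wild-type forelimbs. In Lmx1b -/- hindlimbs it read 5.13, 5.48, 5.12, 5.15 and 4.68 (replicates 6 to 10), against 5.82, 5.87, 5.92, 5.27 and 5.91 in wild-type hindlimbs. The forelimb groups overlapped, with 2 of 5 Lmx1b -/- limbs below the wild-type range; in hindlimbs 4 of 5 Lmx1b -/- limbs lay below it, and only the wild-type replicate 9, at 5.27, dipped into the Lmx1b -/- range.

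Over both limb types Hhip fell by 0.49 on the log2 scale in Lmx1b -/- limbs, which is 1.4-fold (SE 0.103, 95% interval -0.70 to -0.28, limma adjusted p = 0.0126). The change was -0.34 in forelimbs (SE 0.146, adjusted p = 0.318) and -0.64 in hindlimbs (SE 0.146, adjusted p = 0.0853), neither past the threshold, where 1.27% and 0.231% of all genes passed in either direction. The difference between both effects, hindlimb minus forelimb, was -0.31 (SE 0.207, unadjusted p = 0.153, adjusted p = 1), with 0.0201% of all genes past the threshold there, so the genotype change was not shown to depend on limb type. In hindlimbs the call was reached without wild-type replicate 9 (-0.77, adjusted p = 0.00911) and without Lmx1b -/- replicate 7 (-0.73, adjusted p = 0.0311).

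The fall over both limb types kept its call in all 20 fits that left out 1 array (-0.55 to -0.44, adjusted p 0.00214 to 0.0303). The call was also kept with the level of Y-linked genes as a covariate (-0.47, adjusted p = 0.0327). It was lost with male limbs alone, which leave 13 arrays (-0.37, adjusted p = 0.475). It was lost too with the mean of 10 muscle markers as a covariate (-0.47, adjusted p = 0.0976). Within male limbs Hhip averaged 5.93 in 2 Lmx1b -/- forelimbs and 6.27 in 5 wild-type forelimbs, and 5.25 in 3 Lmx1b -/- hindlimbs and 5.66 in 3 wild-type hindlimbs. Within female hindlimbs it averaged 4.90 in 2 Lmx1b -/- and 5.90 in 2 wild-type limbs. The direction was the same in these 3 subsets, and the wild-type forelimbs held no females. In the fit to male limbs alone the change was -0.34 in forelimbs (limma adjusted p = 0.736) and -0.41 in hindlimbs, and neither passed. The female hindlimbs were not tested on their own.

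Hhip also differed by limb type. In Lmx1b -/- embryos all 5 hindlimbs lay below all 5 forelimbs, and the hindlimb level was 1.76-fold lower (log2 change -0.82, SE 0.146, limma adjusted p = 0.00773). In that comparison 0.617% of all genes passed, 0.441% lower, and 0.943% had a hindlimb group wholly below the forelimb group. In wild-type embryos the hindlimb minus forelimb change was -0.51 (SE 0.146, adjusted p = 0.0578), with 2 of 5 hindlimbs below the forelimb range, and 3.26% of all genes passed, 2.49% lower. That wild-type value passed without wild-type forelimb replicate 5 (adjusted p = 0.0327), wild-type hindlimb replicate 8 (0.0491), Lmx1b -/- hindlimb replicate 7 (0.0449) or Lmx1b -/- hindlimb replicate 10 (0.0398). The limb-type difference in Lmx1b -/- limbs held in all 20 fits without 1 array (-0.91 to -0.71) and with the Y-linked covariate (-0.83, adjusted p = 0.0109). It was lost with male limbs alone (adjusted p = 0.76) and with the muscle markers as a covariate (-0.78, adjusted p = 0.185). With that covariate the count over all genes went from 123 to 33. The muscle marker mean was 7.42 to 7.84 in Lmx1b -/- hindlimbs and 7.76 to 8.19 in Lmx1b -/- forelimbs. It was 7.36 to 7.81 in wild-type hindlimbs and 8.12 to 8.61 in wild-type forelimbs. Its part in the Hhip differences was not tested beyond that covariate. Between wild-type limb types the muscle ranges do not overlap, so there the covariate cannot separate muscle from limb type. Between Lmx1b -/- limb types they overlap only from 7.76 to 7.84, so there it can separate them only in part.

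**Figure D2:**
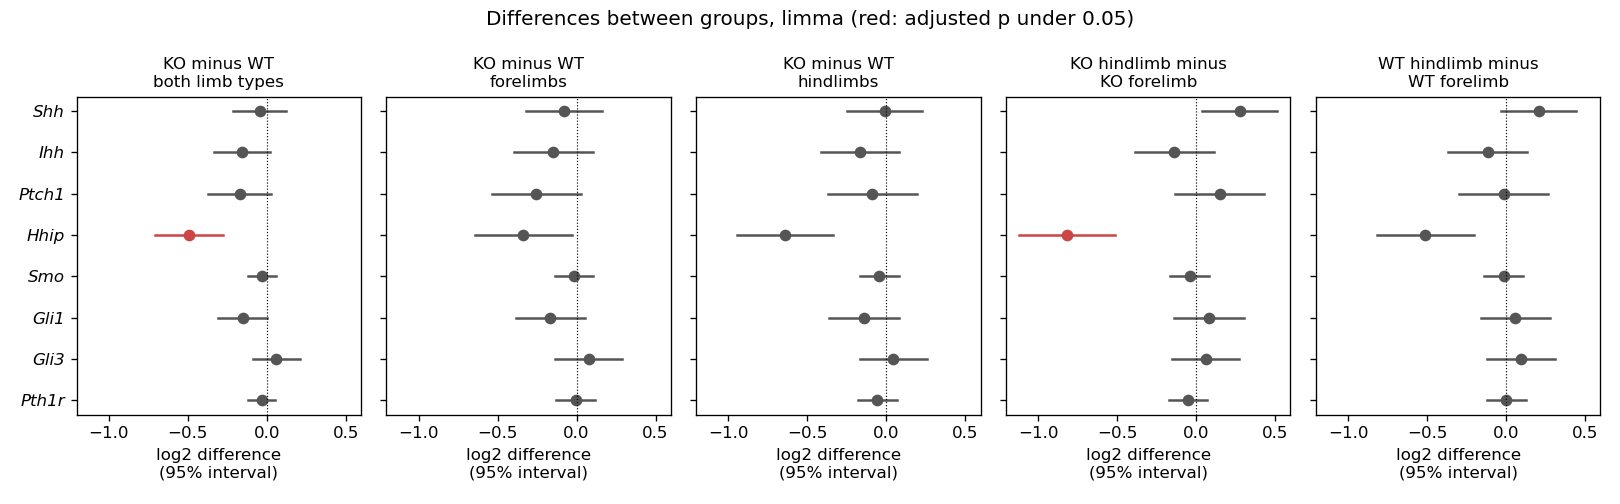
Log2 differences of the 8 members with 95% intervals for genotype over both limb types, in forelimbs and in hindlimbs, and for limb type (hindlimb minus forelimb) in Lmx1b -/- and in wild-type limbs; red marks an adjusted p under 0.05. Hhip is red for genotype over both limb types and for limb type in Lmx1b -/- limbs, and no other member is red in any panel.

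The receptor Ptch1 is both the gate of the pathway and a standard readout of its activity. It read 7.62, 7.18, 7.66, 7.46 and 7.54 in Lmx1b -/- forelimbs, against 7.80, 8.08, 7.82, 7.62 and 7.41 in wild-type forelimbs. It read 7.12, 7.98, 7.73, 7.80 and 7.58 in Lmx1b -/- hindlimbs, against 7.66, 7.87, 7.75, 7.53 and 7.84 in wild-type hindlimbs. Both pairs of groups overlapped. The change over both limb types was -0.17 (95% interval -0.37 to 0.03, limma adjusted p = 0.424), so a fall of the size seen in Hhip lies outside the interval, while a smaller one does not.

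Gli1, an activator whose transcription depends on the pathway, read 5.61, 5.48, 5.80, 5.82 and 5.89 in Lmx1b -/- forelimbs, against 5.77, 6.14, 5.95, 5.85 and 5.73 in wild-type forelimbs. It read 5.48, 5.94, 5.80, 6.0 and 5.78 in Lmx1b -/- hindlimbs, against 5.99, 6.16, 5.70, 6.02 and 5.85 in wild-type hindlimbs. The groups overlapped, and the change over both limb types was -0.15 (95% interval -0.31 to 0.00, adjusted p = 0.346). Whether the Hhip change differs from that of Ptch1 or Gli1 was not tested.

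Of the ligands, Shh read 4.79, 4.61, 4.60, 4.83 and 5.06 in Lmx1b -/- forelimbs, against 4.58, 5.15, 4.67, 4.87 and 5.02 in wild-type forelimbs. It read 4.68, 4.99, 5.18, 5.11 and 5.31 in Lmx1b -/- hindlimbs, against 5.04, 5.15, 5.08, 4.97 and 5.08 in wild-type hindlimbs. The genotype change was -0.04 (SE 0.081, 95% interval -0.21 to 0.12, adjusted p = 0.854). The hindlimb minus forelimb change was 0.28 in Lmx1b -/- limbs (SE 0.115, unadjusted p = 0.025, adjusted p = 0.41) and 0.21 in wild-type limbs (SE 0.115, adjusted p = 0.386), so hindlimb values were higher on average but did not pass.

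Ihh read 5.86, 5.58, 5.70, 5.76 and 6.10 in Lmx1b -/- forelimbs, against 5.84, 6.15, 5.89, 6.14 and 5.72 in wild-type forelimbs. It read 5.32, 5.78, 5.69, 5.76 and 5.78 in Lmx1b -/- hindlimbs, against 5.93, 6.15, 5.55, 5.64 and 5.89 in wild-type hindlimbs. The genotype change was -0.16 (95% interval -0.33 to 0.02, adjusted p = 0.407) and the groups overlapped in both limb types.

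The remaining members moved little. Smo, the membrane transducer, ran from 8.64 to 8.91 over all 20 arrays and changed by -0.03 with genotype (95% interval -0.12 to 0.06, adjusted p = 0.793). Gli3, whose processed form represses hedgehog targets, ran from 6.76 to 7.33 and was the only member with a positive change (0.06, 95% interval -0.09 to 0.21, adjusted p = 0.757). Pth1r, the receptor through which Pthlh slows chondrocyte maturation, ran from 7.70 to 8.0 and changed by -0.03 (95% interval -0.12 to 0.06, adjusted p = 0.782). These intervals exclude changes the size of the Hhip fall in either direction. No gene passed for left against right limbs (0 of 19936); Hhip was lower in left limbs by an average of 0.28 on the log2 scale (unadjusted p = 0.00496, adjusted p = 0.327), and it was the only member with an unadjusted p under 0.05 there.

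The other genes of the pathway were read from 6 lists with 120 entries, of which 113 were measured. Over both limb types 0.466% of all genes rose and 1.57% fell with genotype. Among 15 measured ligand-handling genes and co-receptors, 0 rose and 1 fell with genotype (Disp1, which releases lipid-modified hedgehog, -0.16, SE 0.041, limma adjusted p = 0.0432), with a list median of -0.05. None of 11 transduction genes passed (median -0.03): Sufu, which restrains Gli proteins, changed by -0.13 (adjusted p = 0.345) and Gli2 by -0.01 (adjusted p = 0.955). None of 17 primary cilium genes passed (median 0.05). Of 17 measured parathyroid hormone signalling genes 0 rose and 1 fell, the cyclic AMP phosphodiesterase Pde4d (-0.19, SE 0.048, adjusted p = 0.0399; median -0.04). The Disp1 and Pde4d calls were each lost in 13 of 20 fits without 1 array and with the dimmer probe set of the gene (Disp1 -0.09, adjusted p = 0.509; Pde4d -0.05, adjusted p = 0.827). Both were lost as well with arrays centred on the median (-0.13 and -0.16, adjusted p 0.0876 and 0.0758), the Y-linked covariate (-0.15 and -0.19, 0.0917 and 0.0792), male limbs alone (-0.19 and -0.15, 0.329 and 0.602) and the muscle covariate (-0.15 and -0.18, 0.247 and 0.241). Among fits without 1 array, Disp1 kept its call only without wild-type forelimb replicates 1 or 2, wild-type hindlimb replicates 7 or 8, Lmx1b -/- forelimb replicates 3 or 5, or Lmx1b -/- hindlimb replicate 10. Pde4d kept it only without wild-type forelimb replicates 1 or 5, wild-type hindlimb replicates 6 or 9, Lmx1b -/- forelimb replicates 1 or 3, or Lmx1b -/- hindlimb replicate 6.

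**Figure D3:**
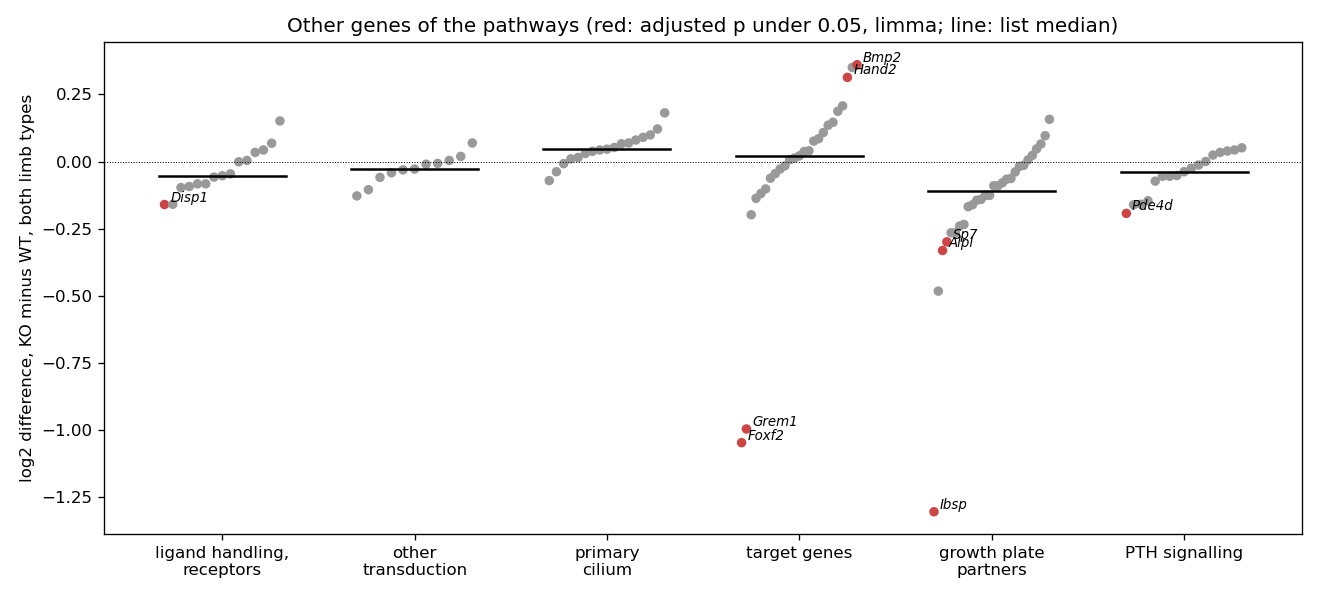
Log2 change with genotype over both limb types for every measured gene of the 6 pathway lists, with genes at an adjusted p under 0.05 in red. Lines are list medians. Most genes lie near 0, while Foxf2 (-1.05), Grem1 (-0.99) and Ibsp (-1.30) stand far below it and Bmp2 (0.36) and Hand2 (0.31) above it.

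The list of hedgehog target genes in mesenchyme split in direction: of 25 measured genes, 2 rose and 2 fell (median 0.02), against 0.466% and 1.57% of all genes. Foxf2, a forkhead factor, averaged 4.88 ± 0.30 in Lmx1b -/- forelimbs and 6.05 ± 0.24 in wild-type forelimbs (SD, n = 5 each), and 4.73 ± 0.11 in Lmx1b -/- hindlimbs and 5.66 ± 0.27 in wild-type hindlimbs. Grem1, the BMP antagonist that links Shh to the apical ridge, averaged 5.31 ± 0.16 in Lmx1b -/- forelimbs and 6.72 ± 0.14 in wild-type forelimbs, and 5.19 ± 0.30 in Lmx1b -/- hindlimbs and 5.78 ± 0.04 in wild-type hindlimbs. Foxf2 fell by 1.05 (SE 0.098, limma adjusted p = 5.91e-07) and Grem1 fell by 0.99 (SE 0.077, adjusted p = 4.12e-08) on the log2 scale over both limb types, and both kept that call in all 32 alternative fits. Bmp2, a secreted BMP ligand, rose by 0.36 (SE 0.073, adjusted p = 0.00877) and Hand2, a posterior factor upstream of Shh, by 0.31 (SE 0.061, adjusted p = 0.00644). In forelimbs the same 4 genes passed (where 0.241% of all genes were higher and 1.03% lower): Grem1 -1.40, Foxf2 -1.16, Bmp2 0.42 (adjusted p = 0.0447) and Hand2 0.42 (adjusted p = 0.0131). The Bmp2 and Hand2 calls over both limb types were lost with male limbs alone, at 0.28 and 0.24 (adjusted p 0.418 and 0.423), and with the muscle covariate, at 0.29 and 0.24 (adjusted p 0.138 and 0.118). The forelimb Bmp2 call was lost in 15 of 20 fits without 1 array (it survived omission of Lmx1b -/- forelimbs 2 or 5, Lmx1b -/- hindlimb 6, wild-type forelimb 1 or wild-type hindlimb 9), and the forelimb Hand2 call without wild-type forelimb replicate 5 (adjusted p = 0.0541) or Lmx1b -/- forelimb replicate 4 (0.0524). Both forelimb calls were also lost with male limbs alone (Bmp2 0.34, Hand2 0.39; adjusted p 0.526 and 0.345), the muscle covariate (0.28 and 0.28; 0.736 and 0.562), the Y-linked covariate (0.40 and 0.39; 0.148 and 0.0737) and only the forelimb groups in the fit (adjusted p 0.148 and 0.0654). In hindlimbs Foxf2 (-0.93, adjusted p = 0.00113) and Grem1 (-0.59, adjusted p = 0.0145) fell, but both calls there were lost with male limbs alone (-0.83 and -0.74, adjusted p 0.106 and 0.0508). The Grem1 call was lost as well with only the hindlimb groups in the fit (adjusted p = 0.0995) and without wild-type hindlimb replicate 10 (0.0524).

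Of 28 measured growth plate partners of Ihh and Pthlh, 0 rose and 3 fell with genotype (median -0.11), against 0.466% and 1.57% of all genes. They were Ibsp, a bone matrix protein (-1.30, SE 0.241, limma adjusted p = 0.00424), Alpl, the phosphatase of mineralising cells (-0.33, SE 0.068, adjusted p = 0.00935), and Sp7, an osteoblast factor (-0.30, SE 0.065, adjusted p = 0.0149). These 3 are also 3 of the 4 measured osteoblast markers. The mean of those 4 markers was 5.60 to 5.94 in Lmx1b -/- forelimbs, against 6.07 to 7.15 in wild-type forelimbs, and 5.56 to 5.93 in Lmx1b -/- hindlimbs, against 5.71 to 6.0 in wild-type hindlimbs. Its part in the list's count was not tested. In forelimbs alone 4 growth plate genes fell, Panx3 with them (-0.98, adjusted p = 0.03; lost without wild-type forelimb replicates 2, 3 or 4 or Lmx1b -/- forelimb replicates 2 or 4, adjusted p 0.063 to 0.097), and in hindlimbs 0 passed. No gene of the list passed the limma test of the difference, where 5 of 28 genes and 4 of 4 osteoblast markers had an unadjusted p under 0.05. Panx3 averaged 4.50 in Lmx1b -/- and 5.49 in wild-type forelimbs, against 4.33 and 4.31 in hindlimbs. Ibsp averaged 3.655 in Lmx1b -/- and 6.053 in wild-type forelimbs, against 3.639 and 3.848 in hindlimbs. Outside wild-type forelimbs both genes thus averaged below the median of every array (4.84 to 4.99). Its wild-type forelimbs ran from 3.945 to 6.959, and its change of -1.30 averages a large forelimb fall with a small hindlimb one. The Ibsp, Alpl and Sp7 calls over both limb types were lost with male limbs alone, where the changes were -1.34, -0.34 and -0.29 (adjusted p 0.244, 0.167 and 0.371). They were lost too with the muscle covariate, where the changes were -1.20, -0.28 and -0.26 (adjusted p 0.054, 0.125 and 0.163). All 4 forelimb calls were lost with male limbs alone: Ibsp at -2.35 (adjusted p = 0.145), Alpl at -0.60 (0.0725), Sp7 at -0.47 (0.304) and Panx3 at -0.76 (0.54). With the muscle covariate the forelimb calls of Alpl (-0.46), Sp7 (-0.37) and Panx3 (-0.78) were lost (adjusted p 0.192, 0.389 and 0.585), and Panx3 also with the Y-linked covariate (-0.77, adjusted p = 0.165) and with an intensity trend and robust prior (0.0579).

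For limb type in Lmx1b -/- limbs, 1 target gene was higher and 2 were lower in hindlimbs (0.176% of all genes were higher and 0.441% lower): Foxd1 (log2 change 0.63, limma adjusted p = 0.00167), Tbx3, a T-box factor of the limb margins (-0.61, adjusted p = 8.16e-05), and Osr1 (-0.43, adjusted p = 0.0253). Foxd1 was dim: it averaged 4.12 in Lmx1b -/- and 4.22 in wild-type forelimbs, and 4.74 and 4.76 in hindlimbs. These levels lie below the median of every array (4.84 to 4.99). No growth plate gene passed for limb type in Lmx1b -/- limbs. In wild-type limbs 2 target genes were higher and 3 lower in hindlimbs (0.772% of all genes were higher and 2.49% lower). The 4 with the smallest p were Tbx3 (-0.64), Grem1 (-0.94), Foxd1 (0.54) and Cdk6, a cell cycle kinase (-0.38, adjusted p = 0.0297). Of the 28 growth plate genes 6 were lower in wild-type hindlimbs, where 2.49% of all genes were lower. They were led by Ibsp (-2.21), Mef2c, a factor of hypertrophy (-0.57), Panx3 (-1.18) and Alpl (-0.47). The Osr1 call was lost without Lmx1b -/- forelimb replicates 1 or 3 or Lmx1b -/- hindlimb replicates 6, 8, 9 or 10 (adjusted p 0.0567 to 0.0997). Omitting any of wild-type hindlimbs 6, 7 and 9 or wild-type forelimbs 4 and 5 ended the Cdk6 call (adjusted p 0.0788 to 0.093). All 3 Lmx1b -/- calls were lost with male limbs alone, at changes of 0.53 for Foxd1, -0.58 for Tbx3 and -0.44 for Osr1 (adjusted p 0.417, 0.0964 and 0.751). Osr1 lost its call with the muscle covariate too (-0.27, adjusted p = 0.778) and with only the groups compared (0.114). All 8 wild-type calls named here were lost with the muscle covariate, at changes that differed between genes. The muscle mean did not overlap between wild-type forelimbs and hindlimbs, and over all genes the count went from 650 to 11. That fit therefore cannot separate muscle from limb type, and these losses decide nothing about single genes. Foxd1 was then at 0.66, Ibsp at -1.82, Grem1 at -0.72 and Panx3 at -0.78, against -0.32 for Tbx3, -0.28 for Alpl, -0.07 for Mef2c and 0.06, the opposite sign, for Cdk6. Panx3 also lost its call with male limbs alone (-1.06, adjusted p = 0.0528). In wild-type limbs the osteoblast and muscle marker means given above were lower in hindlimbs. The part of the osteoblast markers was not tested, and that of the muscle markers could not be told apart from limb type. In Lmx1b -/- limbs the ranges of the osteoblast mean overlapped between limb types, with 0 of 4 markers past the threshold.

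Most pairs of members varied in the same direction from limb to limb within a group. With group means removed, 25 of the 28 pairs had a positive Pearson r over the 20 arrays, and 7 pairs passed after adjustment over the 28 (two-sided permutation within groups). As a description over the same arrays, r was positive in 89.3% of member pairs, against 50% of all pairs of the 19936 genes and 61.1% of pairs of genes with a mean log2 intensity of at least 5. It was 0.63 or more in 25.0% of member pairs, against 1.67% and 3.46% of those pairs. The cut of 0.63 was the lowest r of the 7 member pairs that passed. The 25.0% was thus set by the members' own results, and nothing is concluded from that contrast. Pairs share genes and arrays, and no test was made of the difference in either share. Ihh and Gli1 had r = 0.74 (permutation p = 0.00115, adjusted p = 0.0296) and rho = 0.71 (p = 0.00189, adjusted p = 0.0265), and r = 0.61 without the 2 arrays farthest from the median. Ptch1 and Hhip had r = 0.65 (p = 0.00741, adjusted p = 0.0296) and rho = 0.72 (p = 0.00085, adjusted p = 0.0238), and r = 0.76 without those 2 arrays. These were the 2 pairs that passed by both measures. Ptch1 with Gli3 (r = 0.70) and with Gli1 (0.68), Smo with Gli3 (0.66), Shh with Ihh (0.63) and Ihh with Ptch1 (0.63) passed by Pearson r alone. Without the 2 arrays farthest from the median these r fell to 0.42, 0.52, 0.58, 0.51 and 0.56, in the same order. Shh averaged 4.94 over all arrays, within the range of the array medians (4.84 to 4.99), so its r rests on a dim probe set.

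**Figure D4:**
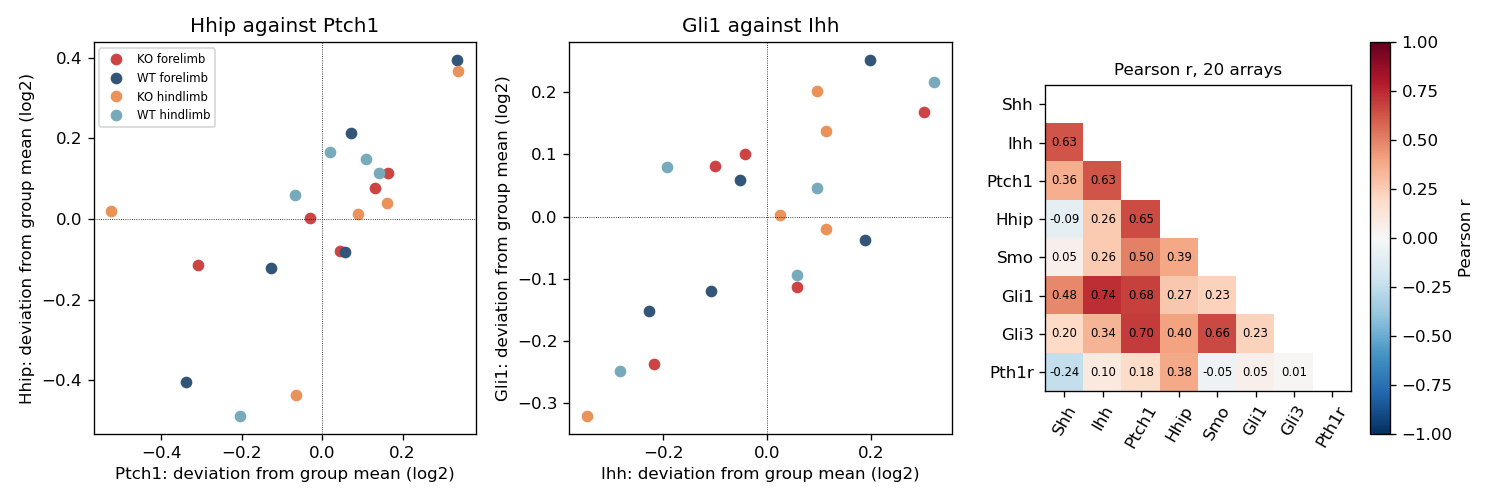
Deviation from the group mean (log2) of Hhip against Ptch1 and of Gli1 against Ihh, 1 point per array (KO, Lmx1b -/-; WT, wild-type), and Pearson r between all members over 20 arrays. In the right panel Ihh with Gli1 (0.74) and Ptch1 with Gli3 (0.70) have the highest r.

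Single limbs stood at the edge of their group for many members at once. Lmx1b -/- hindlimb replicate 6 was lowest of its group for 6 of 8 members, wild-type forelimb replicate 5 lowest for 7, and wild-type forelimb replicate 2 highest for 6. The leading axis of variation within groups held 19% of the variance, and its correlation with the members ran from -0.19 for Shh to 0.54 for Hhip; its part in the pairs was not tested.

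The genes whose limb-to-limb pattern was most like a member, among 10982 genes, are given as a description over the same 20 arrays. For Ptch1 they were Col11a1 (r = 0.93), Foxp2 (0.93) and Mme (0.92). For Hhip they were Bet1l (0.92), Gnb4 (0.88) and Lurap1l (0.88). For Gli3 they were Frmd4a (0.95), Sema6a (0.91) and Tnrc6a (0.91). For Ihh they were Col9a3 (0.82), Cd83 (0.80) and Rcn3 (0.80), and for Pth1r Cyba (0.89), Man1b1 (0.82) and Trpv4 (0.80). For Gli1 they were Ip6k2 (0.82), Phf1 (0.81) and Fibin (0.81), for Smo Ubfd1 (0.88), Prcc (0.87) and Gtpbp8 (0.84), and for Shh Tent5b (0.83), Col13a1 (0.81) and Snph (0.80).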

How the data were processed

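RNA of 20 single limbs was measured. The authors' deposited values are linear intensities, 1 per probe set and array, produced by RMA according to the submitters' processing notes; they run from 1.65 to 13033. Which software release, annotation and build lay behind them is not stated in the labels. The log2 of each deposited intensity was taken here with no pseudocount.

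Of 35512 probe sets, 21789 carried 1 gene symbol in the platform annotation, 1621 several and 12101 none; 1 row was empty. Symbols were updated through RefSeq. Genes with several probe sets (1001) took the one with the highest mean, which gave 19936 genes. limma 3.58.1 in R 4.3.3 fitted 4 group means with Benjamini-Hochberg adjustment over all genes; side was added as a term for left against right. The procedure was tested on simulated data. Pairs were 28, not the planned 36, since Pthlh had no value. The number of arrays limits the precision.

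Named genes are the members, Lmx1b, and from each list up to 4 genes past the threshold per comparison by smallest p. Members and lists were chosen with earlier results of these data known. Alternatives for list genes were added after seeing the data. Replicate numbers were not used to pair limbs in the main fit, since the labels do not say that they do.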

Additional observations from a re-analysis of the deposited data

Results flagged for a closer look

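In 32 groups of 5 limbs (8 members in 4 groups), 2 single values lay far from the rest of their group; chance alone puts about 1 in 20 groups past this mark. Ihh in Lmx1b -/- hindlimb replicate 6 was lowest, at 5.32 (log2 intensity), with a gap of 0.809 of the group's range to its nearest neighbour. Without that limb the hindlimb change of Ihh was -0.08 (limma adjusted p = 0.967), against -0.17 with it (adjusted p = 0.959). Hhip in wild-type hindlimb replicate 9 was lowest, at 5.27, with a gap of 0.834 of the range. Without that limb the hindlimb change of Hhip was -0.77 (adjusted p = 0.00911), against -0.64 with it (adjusted p = 0.0853).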

How the results depend on the processing

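Of 1809 alternative values of the members, 1719 kept their direction and their side of the threshold, 4 lost a call, 14 gained one and 72 changed sign, the last all without a call in any fit; every lost or gained call was of Hhip. With male limbs alone and with the muscle covariate the number of members called was 0, not 1, for genotype over both limb types and for limb type in Lmx1b -/- limbs (Hhip -0.37 and -0.47, adjusted p 0.475 and 0.0976; -0.67 and -0.78, adjusted p 0.76 and 0.185). In hindlimbs the count was 1, not 0, with array weights (Hhip -0.69, adjusted p = 0.0158), the main axis within groups as a covariate (0.023) and the replicate block (0.0381), and 0 to 1 without 1 array. For limb type in wild-type limbs it was 1, not 0, with a pseudocount of 16 (-0.41, adjusted p = 0.0383), a filter on dim genes (0.0359), array weights (-0.47, 0.0379), the main axis (0.0204) and the replicate block (0.0354), and 0 to 1 without 1 array. The cause was not tested. Lmx1b -/- and wild-type limbs of the same limb type and number had correlations of -0.313 to 0.256, 4 of 10 over 0.1. In 3 of 10 the Lmx1b -/- limb correlated best with the wild-type limb of its own number, so a pairing between genotypes by number is not borne out. Limbs of the same genotype were not compared by correlation, so that check cannot show which limbs share an embryo. By sex, wild-type forelimbs 2 and 3 (male) cannot share an embryo with the same-numbered right hindlimbs 7 and 8 (female). The same holds for Lmx1b -/- forelimbs 2 and 4 (female) with hindlimbs 7 and 9 (male), and forelimb 5 (male) with hindlimb 10 (female). The replicate block, set by side and number, joined these limbs all the same. The replicate block called 393 genes over both limb types, against 406, and changed no call of a member other than those above. Among list genes named in the text it ended the forelimb Bmp2 call (adjusted p = 0.0506).

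Signs turned, all without a call except Cdk6, as follows. With arrays centred on the median, the forelimb genotype changes of Smo and Pth1r became 0.0205 and 0.0318, the hindlimb change of Shh 0.0122, and the wild-type limb-type changes of Ptch1 and Smo 0.0108 and 0.012. With quantile normalization, Shh in hindlimbs became 0.02, Ptch1 for wild-type limb type 0.00223 and Gli3 for side 3.96e-05. With array weights, Smo and Pth1r in forelimbs became 0.0225 and 0.00133, Shh in hindlimbs 0.0338, the Ihh interaction 0.00331, and Ptch1 and Pth1r for wild-type limb type 0.0252 and -0.00444. Adjusted for Y-linked level, Pth1r in forelimbs became 0.0114. With male limbs alone, Shh, Ihh and Pth1r in forelimbs became 0.0691, 0.0328 and 0.0225, the Shh and Gli1 interactions -0.171 and -0.00848, and Gli3 for limb type in Lmx1b -/- limbs -0.0262. With the muscle covariate, Pth1r in forelimbs became 0.0186, the Smo interaction 0.00355, and Ptch1, Gli1 and Cdk6 for wild-type limb type 0.0709, -0.0892 and 0.061 (the Cdk6 call was lost). With the main axis, Gli3 for side became 0.0229. The rho of Smo with Pth1r was 0. Leaving out 1 array, the interactions ranged from -0.0395 to 0.104 for Gli1, -0.079 to 0.0619 for Gli3, -0.0914 to 0.066 for Ihh, -0.00321 to 0.164 for Shh and -0.0606 to 0.0068 for Smo. The forelimb changes ranged from -0.0434 to 0.0229 for Pth1r and -0.0515 to 0.0158 for Smo, and the hindlimb changes from -0.00151 to 0.139 for Gli3, -0.174 to 0.0416 for Ptch1 and -0.0749 to 0.084 for Shh. The change over both limb types ranged from -0.0803 to 0.00205 for Shh, the wild-type limb-type changes from -0.1 to 0.068 for Ptch1, -0.0121 to 0.0183 for Pth1r and -0.0479 to 0.00558 for Smo, and the side change from -0.0796 to 0.00239 for Gli3.

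Over all genes the count for genotype over both limb types was 406 and became 67 with male limbs alone, 131 with the muscle covariate, 656 with the main axis and 768 with array weights. In forelimbs it was 253 and became 37, 52 and 476 with the first 3 of these, 163 with only the groups compared and 139 with the Y-linked covariate. In hindlimbs it was 46 and became 13 with male limbs alone, 70 with the main axis and 82 with array weights. For limb type in Lmx1b -/- limbs it was 123 and became 13, 33, 213 and 210, and 44 with only the groups compared; for limb type in wild-type limbs it was 650 and became 419, 11, 1144 and 1260. Leaving out 1 array gave 260 to 595 genes for genotype over both limb types (266, 260 and 269 without wild-type forelimb 3, wild-type hindlimb 7 and wild-type hindlimb 10) and 33 to 54 in hindlimbs. In forelimbs it gave 124 to 436 (164 and 124 without Lmx1b -/- forelimbs 2 and 4; 436, 136, 133 and 124 without wild-type forelimbs 1, 3, 4 and 5). For limb type in Lmx1b -/- limbs it gave 60 to 140 (73, 79 and 70 without Lmx1b -/- hindlimbs 8, 9 and 10; 68 and 60 without Lmx1b -/- forelimbs 1 and 3). For limb type in wild-type limbs it gave 311 to 848 (354 and 311 without wild-type hindlimbs 6 and 9; 374, 381 and 340 without wild-type forelimbs 3, 4 and 5). The interaction count, 4, ranged from 1 to 10 and the side count, 0, from 0 to 1.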
